A study of Mus musculus with 6 samples.

Results

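The genes described are 8 members of the small leucine-rich proteoglycan (SLRP) family, Dcn (decorin), Bgn (biglycan), Aspn (asporin), Lum (lumican), Fmod (fibromodulin), Prelp (prolargin), Omd (osteomodulin) and Ogn (osteoglycin, or mimecan), measured by 11 of the 41174 probes on a single-colour mouse expression array. Their probes were taken by gene name. The set was chosen because Dcn stayed level between the groups while other fibroblast matrix genes rose, so the levels and changes of the 8 genes in this comparison are given as a description. No p-value is given for a member, and where the fit across all genes called one, that call is no independent evidence. Primary cultures had been transfected for 48 h with 30 nM of either a miR-16 precursor, named pre-miR-16 (3 arrays), or a scrambled precursor, named pre-miR-Control (3 arrays). All 6 cultures came from C4HD, a hormone-dependent ductal mammary tumour of female BALB/c mice that arose under the progestin medroxyprogesterone acetate and is passed on by transplantation into mice carrying a 40 mg depot of it. The cultures were seeded from the epithelial-enriched fraction, from which fibroblasts had been depleted by repeated sedimentation. The labels call the 3 cultures of a condition biological replicates without saying whether they came from separate tumours.

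SLRPs are secreted proteins of the extracellular matrix built around tandem leucine-rich repeats, and many carry chondroitin, dermatan or keratan sulfate chains. They bind collagen fibrils and set fibril diameter and spacing, and some also bind growth factors or cell surface receptors. In connective tissue, mammary stroma included, fibroblasts are their main source. The family is divided into classes by sequence, with Dcn, Bgn and Aspn in class I, Lum, Fmod, Prelp and Omd in class II, and Ogn in class III.

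MiR-16 guides the silencing complex to transcripts through its seed, bases 2 to 8, shown in capitals in the mature mouse sequence from RefSeq (build GRCm38.p6), which is shown because the treatment carries its name.
mmu-miR-16-5p: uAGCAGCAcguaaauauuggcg
The complement of that seed, TGCTGCT, was absent from all 11 member probes and present in 0.544% of the 41174 probes. That says nothing about the transcripts outside the probed bases. The 60-base probes of 3 members are shown because the decorin and biglycan values rest on the first and second, and because the third disagreed with the other Prelp probe.
Dcn: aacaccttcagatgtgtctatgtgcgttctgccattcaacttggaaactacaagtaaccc
Bgn: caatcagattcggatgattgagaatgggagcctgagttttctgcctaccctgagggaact
Prelp: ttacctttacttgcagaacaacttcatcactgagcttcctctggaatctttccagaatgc
The array files place the Dcn probe at chr10:97080086-97080145, the Bgn probe at chrX:68879864-68879923 and the Prelp probe at chr1:133804829-133804888 (build mm7), and assign them to the RefSeq mRNAs NM_007833, NM_007542 and NM_054077.

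Levels are log2 signals minus the 75th percentile of the array, so that a level of 0 is the 75th percentile. They are compared between arrays for one probe. Between probes, signal serves only to place a spot within the range of the scanner, not to compare amounts of RNA. Changes are pre-miR-16 minus pre-miR-Control on this scale, given with an SE. For members the SE comes from the fit across all probes, and for other genes from the fit across all genes tested. The 75th percentile ranged from 625 to 909 signal units over the 6 arrays. Each array had 57.2% to 64.0% of its spots well above background and 0 saturated spots. The 3 arrays of a group limit the precision. A gene was tested if at least 1 of its probes was well above background on all 3 arrays of a group, and called if its adjusted p in limma was under 0.05. The 6 arrays came from 3 slides. Slides 1 and 2 held both groups, and pre-miR-16 replicate 3 was alone on slide 3.

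Dcn gave a bright signal that changed little between the groups. Its collagen-binding product also sequesters TGF-beta and antagonises growth factor receptors such as EGFR and MET. The probe for its mRNA, A_51_P334104, read 8.77, 8.65 and 8.40 on pre-miR-16 replicates 1 to 3, against 8.79, 8.56 and 8.68 on pre-miR-Control replicates 1 to 3. The groups overlapped. The means were 8.61 ± 0.19 in pre-miR-16 and 8.68 ± 0.12 in pre-miR-Control cultures (SD, n = 3 each), a change of -0.07 ± 0.13 (SE) with a 95% interval from -0.39 to 0.25. The change was -0.02 within slide 1 and 0.03 within slide 2.

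Before scaling between arrays, the processed Dcn signal was 325133, 295628 and 306266 units on pre-miR-16 replicates 1 to 3, against 277685, 244812 and 285617 units on pre-miR-Control replicates 1 to 3. Unscaled, all 3 pre-miR-16 arrays were therefore above all 3 control arrays. The sign of the small Dcn change depended on the scaling. It was 0.10 after quantile normalization, 0.15 in the series matrix values and 0.31 with arrays scaled on spike-ins. Scaling on spike-ins raised every change by 0.38, and with it the median change of all genes became 0.18, against -0.20 with the 75th percentile.

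The Dcn probe was among the brightest on every array. It ranked 4, 4 and 7 among all probes on pre-miR-16 replicates 1 to 3, against 6, 12 and 5 on pre-miR-Control replicates 1 to 3. Its raw mean signal was 52.7% to 56.1% of the highest probe in pre-miR-16 and 43.6% to 54.0% in pre-miR-Control arrays. It had 0 saturated pixels on all 6 arrays, and on all 6 its value came from the low-gain scan that the scanner software scales up for bright spots. Other genes with a mean level this bright over both groups also moved little. Of the 52 genes whose probe had a mean level within 1 log2 unit of that of Dcn, itself included, 0 rose and 6 fell by the test (11.5% called), and their changes ran from -0.95 for Krt18, a luminal keratin, to 0.31 for Pigt. Of the 682 genes read from the low-gain scan on all arrays, 6 were at least 2-fold higher, and the largest increase was 2.24 for Hp, the haptoglobin gene. Only genes bright on every array are in that set, and the 52 genes were chosen by their mean level over all 6 arrays. A rise from a dim control level could therefore enter neither set. Ccn2, a matricellular gene in neither set, rose from a control mean of 3.85 to a pre-miR-16 mean of 7.27. Over all genes 1856 of 16703 were at least 2-fold higher. The part of signal level in the flat Dcn reading was not tested.

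**Figure D1:**
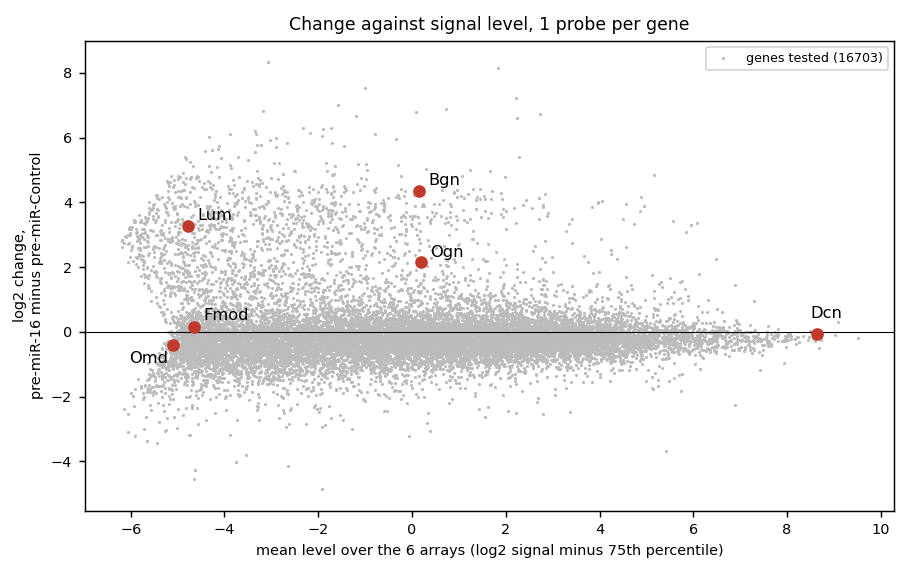
Log2 change (vertical, pre-miR-16 minus pre-miR-Control) against mean level over the 6 arrays (horizontal, log2 signal minus the 75th percentile), 1 grey point for each of 16703 genes at its brightest probe, with the 6 tested SLRP genes in red. Dcn lies near the bright end of mean level, where changes of other genes are small. A large rise from a dim control level cannot lie there. Bgn and Ogn lie near a level of 0 and Lum, Fmod and Omd near the dim end.

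A second probe that the files name Dcn, A_52_P252726, is assigned to the cDNA clone AK052759, described there as unclassifiable, and lies at chr10:97043200-97043259, 36.8 kb from the first. It read -2.18, -2.13 and -2.59 on pre-miR-16 replicates 1 to 3, against -1.95, -2.04 and -1.71 on pre-miR-Control replicates 1 to 3. Here the groups did not overlap, with a change of -0.40 ± 0.16 that became -0.01 with spike-in scaling. Neither Dcn probe was higher in pre-miR-16 cultures with arrays scaled on the 75th percentile.

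Bgn, the closest relative of Dcn among the members and known also as a ligand of the Toll-like receptors TLR2 and TLR4, was much higher in pre-miR-16 cultures. Its mRNA probe, A_52_P162486, read 2.02, 2.69 and 2.27 on pre-miR-16 replicates 1 to 3, against -1.94, -2.13 and -2.02 on pre-miR-Control replicates 1 to 3. The groups lay far apart, with means of 2.33 ± 0.34 and -2.03 ± 0.09 (SD, n = 3 each). The change was 4.36 ± 0.18, or 20.5-fold, and it was 3.96 within slide 1 and 4.76 within slide 2. It ranged from 3.93 to 4.74 over all alternatives run.

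The other Bgn probe, A_52_P19711, belongs to the cDNA BC057185 and was dim. It passed background on 2 of 3 pre-miR-16 arrays. It read -5.84, -4.81 and -4.28 on replicates 1 to 3, against -7.62, -7.42 and -7.59 on pre-miR-Control replicates 1 to 3, where 0 of 3 passed background. Such a probe gives only a lower bound, which sets the pre-miR-16 mean against the higher of the probe's own control signal and the lowest signal well above background on that array. By this bound it was at least 1.27-fold higher. Here and below, such a bound holds for the processed signal only.

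Aspn, known to bind collagen and, in cartilage, to inhibit TGF-beta, was near background. Its probe read -4.96, -4.49 and -5.16 on pre-miR-16 replicates 1 to 3, against -7.47, -7.28 and -7.47 on pre-miR-Control replicates 1 to 3. It passed background on pre-miR-16 replicates 1 and 2 and on 0 control arrays, did not pass the filter, and was at least 1.36-fold higher. A probe the files name AK042419 and describe as asporin, which the choice by gene name left out, was not well above background on any array, with means of -7.58 and -7.48 in pre-miR-16 and pre-miR-Control cultures.

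**Figure D2:**
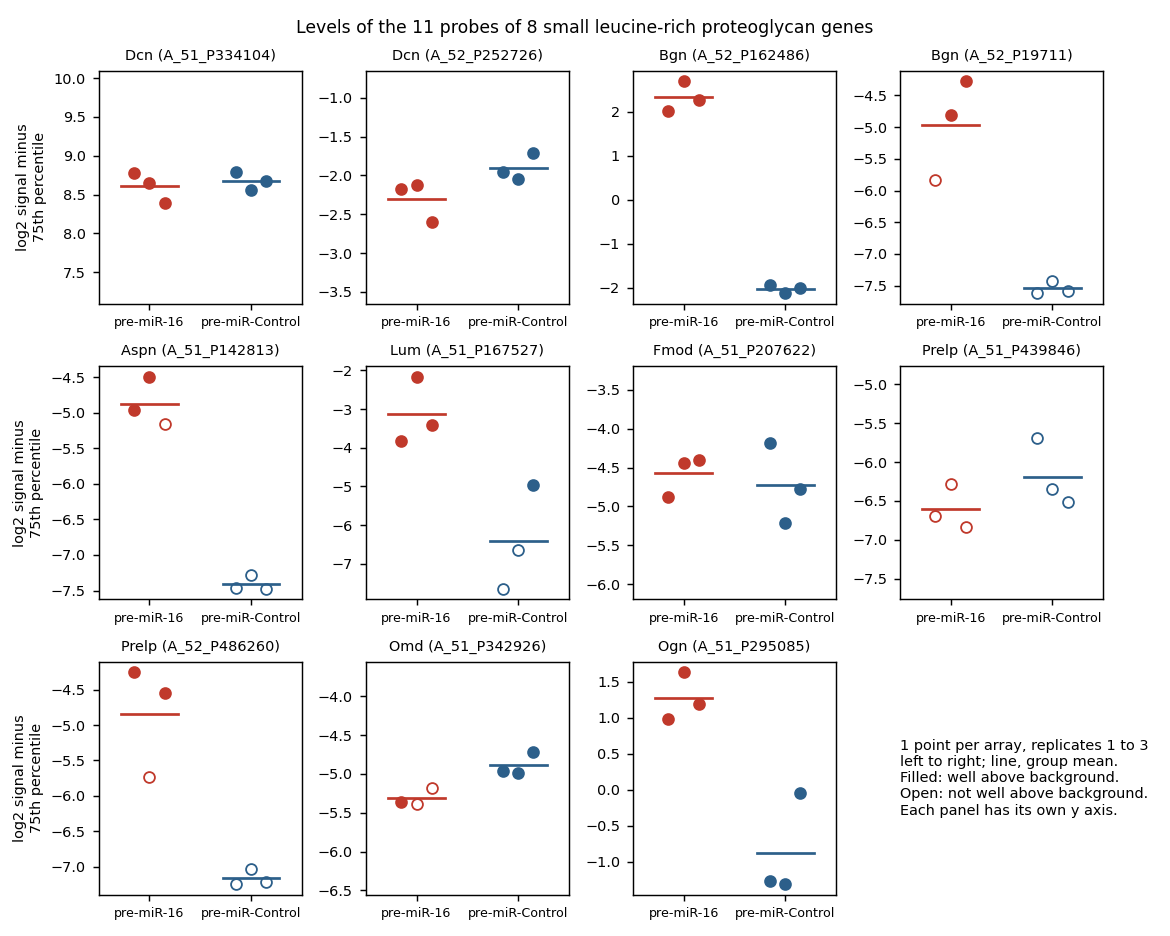
Levels (log2 signal minus the 75th percentile) of the 11 probes of the 8 genes, 1 panel per probe with its own vertical axis, pre-miR-16 arrays in red at the left and pre-miR-Control arrays in blue at the right, replicates 1 to 3 from left to right, with the group mean as a line and open points for arrays not well above background. The bright Dcn probe overlaps between the groups at levels of 8.40 to 8.79, whereas Bgn, Lum and Ogn are separated.

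Among the class II genes, Lum was higher and Fmod and Omd were not. Lum carries keratan sulfate and is best known for ordering the collagen of the cornea. It read -3.83, -2.17 and -3.42 on pre-miR-16 replicates 1 to 3, against -7.64, -6.63 and -4.98 on pre-miR-Control replicates 1 to 3. The groups did not overlap, but the control values were widely spread and only control replicate 3 was well above background. The change was 3.28 ± 0.74, with 3.81 within slide 1 and 3.64 within slide 2, and under normexp, a background correction that damps dim probes, it was 0.86.

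Fmod, a collagen-binding keratan sulfate proteoglycan that affects collagen cross-linking, read -4.88, -4.43 and -4.41 on pre-miR-16 replicates 1 to 3, against -4.18, -5.21 and -4.78 on pre-miR-Control replicates 1 to 3. The groups overlapped, and the change of 0.15 ± 0.28 was smaller than the spread between control arrays (SD 0.52). Its sign differed between slides, at -0.70 within slide 1 and 0.56 within slide 2. All 6 arrays were well above background, at signals of 17.5 to 42.8 units.

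Omd, an acidic SLRP best known from bone, read -5.36, -5.39 and -5.18 on pre-miR-16 replicates 1 to 3, against -4.96, -4.99 and -4.72 on pre-miR-Control replicates 1 to 3. The groups did not overlap. The signal passed background on pre-miR-16 replicate 1 alone, against 3 of 3 control arrays. The change of -0.42 ± 0.12 stands beside a median of -0.20 over all genes, and was -0.04 with spike-in scaling. Omd was not called there, nor with quantile normalization, median centring, the series matrix values, slide as a fixed block or no signal filter, or when pre-miR-16 replicate 1 or control replicate 2 or 3 was left out.

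Prelp, which binds collagen and the basement membrane proteoglycan perlecan, had a pair of probes for the same mRNA that disagreed. The probe shown above was not well above background on any array, with means of -6.60 in pre-miR-16 and -6.19 in pre-miR-Control cultures. The other, A_52_P486260, read -4.25, -5.74 and -4.55 on pre-miR-16 replicates 1 to 3, with replicates 1 and 3 well above background, against -7.25, -7.04 and -7.21 on pre-miR-Control replicates 1 to 3, with 0 above it. By its bound it was at least 1.39-fold higher. Neither Prelp probe passed the filter.

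Ogn, the class III member, was higher in pre-miR-16 cultures. Its probe read 0.99, 1.63 and 1.19 on pre-miR-16 replicates 1 to 3, against -1.27, -1.31 and -0.04 on pre-miR-Control replicates 1 to 3. The groups did not overlap, though control replicate 3 stood above the other control arrays. The means were 1.27 ± 0.33 and -0.87 ± 0.72 (SD, n = 3 each), a change of 2.15 ± 0.37, or 4.43-fold, with 2.26 within slide 1 and 2.31 within slide 2. Without control replicate 3 the Ogn change was 2.56.

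**Figure D3:**
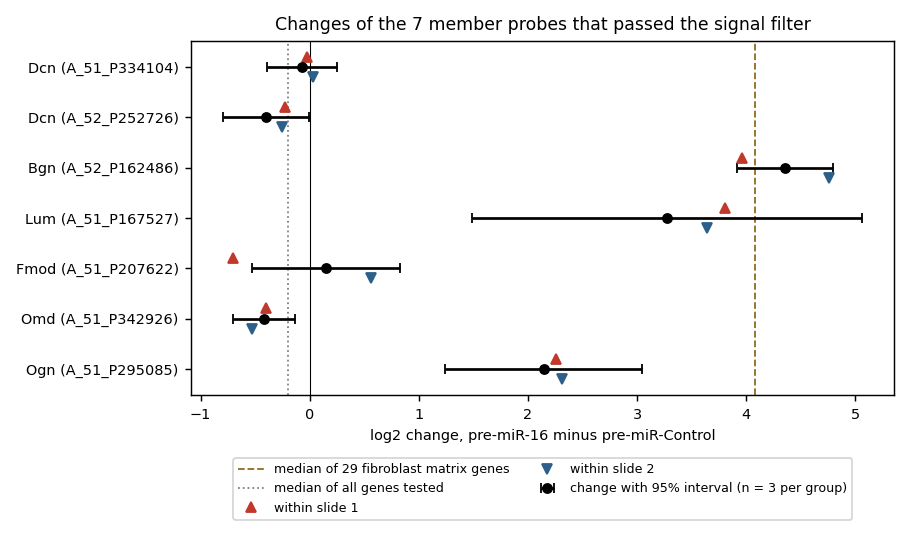
Log2 change (horizontal, pre-miR-16 minus pre-miR-Control) of the 7 member probes that passed the signal filter, with its 95% interval (black, n = 3 per group) and the change within slide 1 (red) and slide 2 (blue). The Dcn, Fmod and Omd probes lie near 0 and near the dotted median of all genes at -0.20, Ogn lies at 2.15 and Bgn at 4.36, with the median of the fibroblast matrix genes dashed at 4.08, and Lum lies at 3.28 with 2 of 3 control arrays below background (0.86 under normexp).

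Of the 8 genes, 6 passed the filter, and 4 of these 6 were called, with Bgn, Lum and Ogn higher and Omd lower, against 49.1% of the 16703 genes tested. In the fit over probes the same 4 genes were called, each by 1 probe, among 7 member probes that passed, against 46.6% of 23828 probes. Lum passed the filter only through the pre-miR-16 arrays and Omd only through the control arrays, and because the set was chosen from this contrast nothing is read from the count. Among the 6 tested members, 4 had groups that did not overlap, against 61.4% of all genes tested, and nothing is read from this count either. In bulk RNA, a difference in the number of cells of a type and a difference in RNA per cell cannot be told apart.

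The members lie in small genomic clusters, and neighbours differed. In the RefSeq gene table (GRCm38.p6), Dcn and Lum are adjacent coding genes on chromosome 10. Their mRNA probes are 54.9 kb apart in mm7, with changes of -0.07 for Dcn and 3.28 for Lum. On chromosome 13, Aspn, Omd and Ogn follow each other, and the changes were -0.42 for Omd and 2.15 for Ogn, 31.6 kb apart by their probes. Prelp and Fmod are adjacent on chromosome 1, and Bgn stands alone on the X chromosome. Differences between these neighbours are described and were not tested.

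Promoter sequences were at hand for 6 of the 8 genes, all but Dcn and Lum. The 250 bases before the start of Bgn (chrX:73483351-73483600, plus strand) and of Ogn (chr13:49607765-49608014, plus strand, both GRCm38.p6, from RefSeq) are shown because these genes had the best measured increases, with searched motifs in capitals.
Bgn: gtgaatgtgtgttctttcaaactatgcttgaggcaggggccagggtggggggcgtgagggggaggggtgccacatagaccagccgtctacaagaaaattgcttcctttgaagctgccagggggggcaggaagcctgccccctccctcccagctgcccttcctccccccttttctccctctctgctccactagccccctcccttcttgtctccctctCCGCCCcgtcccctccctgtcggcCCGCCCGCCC
Ogn: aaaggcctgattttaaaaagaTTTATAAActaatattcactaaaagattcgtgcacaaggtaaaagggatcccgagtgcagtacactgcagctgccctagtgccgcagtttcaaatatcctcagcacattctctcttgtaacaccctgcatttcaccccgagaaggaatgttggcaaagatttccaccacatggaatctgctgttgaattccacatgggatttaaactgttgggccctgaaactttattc
Both strands were searched for TATAAA (the TATA box), GGGCGG (the GC box), TGANTCA (the AP-1 motif), CACGTG (an E-box) and CCAAT. The Bgn stretch held GGGCGG 3 times, beginning at -34, -10 and -6 from the start, of which the last pair overlap, and 32.7% of 32851 promoters hold it. The Ogn stretch held TATAAA as an overlapping pair on opposite strands, beginning at -229 and -227 from the start, a motif found in 12.4% of promoters. The AP-1 motif is in 6.75% of promoters, the E-box in 6.02% and CCAAT in 33.8%, and neither stretch held any of the 3. Aspn held TATAAA beginning at -207 and -178 and CCAAT at -229. Prelp held CCAAT at -15, and Fmod and Omd held none of these motifs. GC content was 64.4% for Bgn and 42.0% for Ogn, against a median of 52.4% over all promoters.

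By the root mean square distance over the 6 arrays between levels centred on each gene's mean, the genes most like Dcn were Rabl6, Kdm5b, Rab12 and Kif5b, at 0.036 to 0.048 log2 units, with changes of -0.14 to -0.01. Those most like Bgn were Col5a3, Mfap5, Aldh2 and 1500005P14Rik, at 0.057 to 0.11, with changes of 4.33 to 4.38. Col5a3 encodes a collagen V chain and Mfap5 a microfibril protein of the fibroblast matrix. Lum had no close match. Its nearest were Dock10, Kcnk12, 1700006H03Rik and Sparcl1, at 0.51 to 0.57.

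Fibroblast matrix genes, which share in the choice of the members, set the contrast with Dcn. Of 29 tested, 27 rose and 0 fell (93.1% called, against 49.1% of all genes). The median was 4.08 (interquartile range 2.95 to 4.29) against -0.20 over all genes. This direction was known beforehand and is a description. Fbln5, an elastic fibre protein, rose by 4.09 ± 0.12, Nid1, which links laminin and collagen IV in basement membranes, by 2.88 ± 0.09, and Col1a2, a chain of collagen I, by 4.16 ± 0.13. Those not called were Tnxb (-0.03 ± 0.77), a tenascin, and Eln (-0.31 ± 0.16), the elastin gene, which was called as lower without pre-miR-16 replicate 2 (-0.43). Bgn, at 4.36, lay just above the interquartile range of this list, and Dcn, at -0.07, lay between Tnxb and Eln.

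Markers of several cell types differed between the groups. For comparison, 15.9% of all genes tested rose and 33.2% fell. Of 8 fibroblast markers tested out of 10, 7 rose, and their summed signal was 223 to 295 times the 75th percentile on pre-miR-16 arrays and 15.0 to 16.3 on control arrays. Col1a1, Col1a2 and Col3a1 are also on the fibroblast matrix list, whose direction was known beforehand. Col1a2 and Col1a1, at pre-miR-16 means of 6.97 and 6.52, weigh most in the sum. Dpt and Tcf21 did not pass the filter. Of 8 pericyte and smooth muscle markers 6 rose (396 to 583 in pre-miR-16, 38.2 to 54.7 in controls), and of 12 macrophage and leukocyte markers 9 rose (182 to 243 in pre-miR-16, 7.51 to 11.8 in controls). Of 12 luminal epithelial markers 11 fell (580 to 612 in pre-miR-16, 1001 to 1148 in controls), or 4 with spike-in scaling, so the labelled epithelial identity was present in both groups. Of 6 basal and myoepithelial markers tested 3 rose and 2 fell (261 to 376 in pre-miR-16, 116 to 150 in controls), and of 7 cartilage, bone and tendon markers 2 rose and 3 fell (24.9 to 32.9 in pre-miR-16, 46.2 to 47.8 in controls). Acta2, Cnn1 and Myh11 are on both the basal list and the pericyte and smooth muscle list, so those counts and sums share genes. Of 6 endothelial markers only Vwf passed the filter, not called, and Pecam1, Cdh5, Kdr, Tek and Emcn did not pass. Of 6 adipocyte markers Fabp4 and Pparg passed and 1 rose, while Adipoq, Plin1, Lep and Cfd did not pass. The part of these cell types in the SLRP values was not tested.

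**Figure D4:**
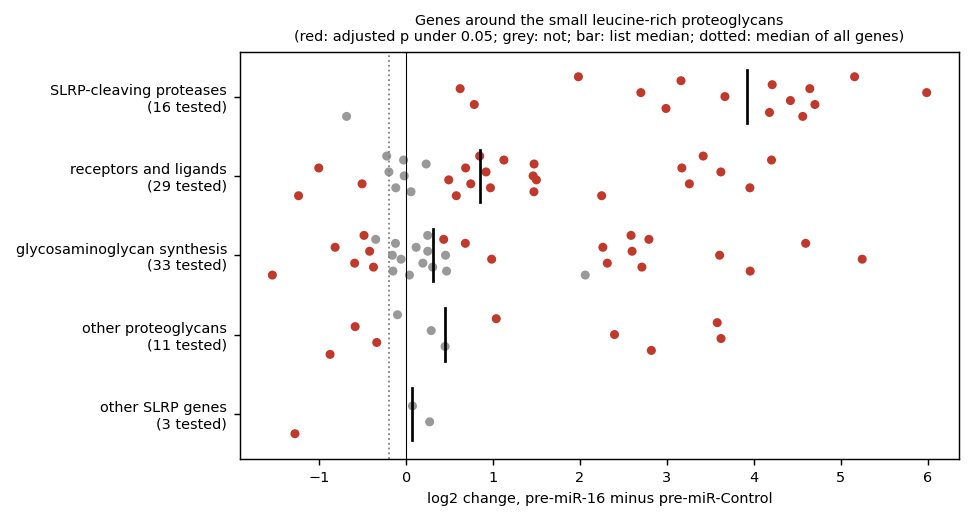
Log2 change (horizontal, pre-miR-16 minus pre-miR-Control) of each tested gene in 5 lists around the SLRPs, with genes at an adjusted p under 0.05 in red, others in grey, the list median as a bar and the median of all genes dotted. SLRP-cleaving proteases lie mostly to the right with a median of 3.92, and the glycosaminoglycan synthesis genes spread to both sides with a median of 0.30.

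Of the other SLRP genes, most were not measurable. Of 11 listed, 10 were on the array and 3 were tested, of which 0 rose and 1 fell (33.3% called, against 49.1% of all genes). Chad (chondroadherin, a cartilage SLRP) changed by -1.28 ± 0.18 (adjusted p = 0.00209 in limma), passed background on 1 of 3 pre-miR-16 and 3 of 3 control arrays, and changed by -0.53 under normexp. Tsku, a secreted regulator of BMP signalling, and Podnl1, a podocan relative, changed by 0.27 ± 0.27 and 0.07 ± 0.17 and were not called, although Tsku was called as higher without pre-miR-16 replicate 2 (0.57). The members' neighbours Kera, Optc and Ecm2, all with a probe on the array, did not pass the filter.

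Genes that build and sulfate the chains of SLRPs went both ways. Of 33 tested out of 38, 13 rose, 6 fell and 14 were not called (57.6% called, against 49.1% of all genes, of which 15.9% rose and 33.2% fell), with a median of 0.30. With spike-in scaling 17 rose and 1 fell. With only probes above background on all 6 arrays, 24 of these genes were tested, of which 4 rose and 6 fell. Of the 15054 genes tested in that way, 2004 rose and 5214 fell. In the main fit the 5 chain synthesis genes with the smallest p all rose. These 5 passed the filter only through the pre-miR-16 arrays, where they were high. Their direction and p-values are therefore no independent evidence of a rise. Ust, a 2-O-sulfotransferase of chondroitin and dermatan sulfate, was at least 9.92-fold higher (adjusted p = 1.14e-05 in limma). Chst5, which sulfates keratan sulfate in the mouse cornea, was at least 9.25-fold higher (adjusted p = 1.17e-05). Chst7, a chondroitin 6-sulfotransferase, was at least 4.04-fold higher, and Dse, the epimerase that turns chondroitin into dermatan sulfate, at least 4.10-fold. B4galt4, a galactosyltransferase of keratan sulfate, rose by 3.61 ± 0.20. These 5 were dim in controls, and under normexp their log2 changes were 1.71, 1.70, 0.82, 0.72 and 1.78, in the order Ust, Chst5, Chst7, Dse and B4galt4. In log2 the bounds of Ust, Chst5, Chst7 and Dse were 3.31, 3.21, 2.01 and 2.04, above their normexp changes. The bounds hold for the processed signal only. The 6 that fell, named after their values were seen, were Papss1 (-1.54), Slc26a2 (-0.82) and Slc35b2 (-0.49), of sulfate activation and transport, and B3galt6 (-0.59), Xylt2 (-0.42) and B3gat3 (-0.38), of the tetrasaccharide that links chain to core protein. Of these only Papss1 stayed called with spike-in scaling. Csgalnact2, a chain-starting enzyme, and Chst4, an N-acetylglucosamine sulfotransferase, changed by 0.04 ± 0.24 and -0.12 ± 0.28 and were not called.

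Of 11 other proteoglycans and hyaluronan genes tested out of 21, 5 rose and 3 fell, or 6 and 0 with spike-in scaling (median 0.45, and 0.02 under normexp). The hyaluronan synthase gene Has2 rose by 2.40 ± 0.11 and the hyaluronan receptor gene Cd44 by 1.04 ± 0.12. Cspg4, a membrane chondroitin sulfate proteoglycan of pericytes, rose by 3.58 ± 0.16, and Srgn, the intracellular proteoglycan of blood cells, by 2.82 ± 0.42. Esm1, a secreted dermatan sulfate proteoglycan, rose by 3.62 ± 0.35, or 1.98 under normexp, and passed the filter only through the pre-miR-16 arrays. Acan (aggrecan) and Bcan (brevican) changed by -0.10 ± 0.19 and 0.45 ± 0.64 and were not called, although without control replicate 1 Bcan was called as higher (1.16).

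Of 29 tested receptors and ligands that Dcn or Bgn bind or signal through, out of 33, 19 rose and 3 fell (75.9% called, against 49.1%), with a median of 0.85, or 0.53 under normexp. With spike-in scaling 20 rose and 1 fell. With only probes above background on all 6 arrays, 26 were tested, of which 16 rose and 3 fell. The receptors that Dcn antagonises moved apart. Egfr read 1.63 ± 0.18 in pre-miR-16 and -1.62 ± 0.30 in pre-miR-Control cultures (SD, n = 3 each), a rise of 3.26 ± 0.18 (adjusted p = 5.04e-05 in limma). Erbb2 changed by -0.02 ± 0.17 and Erbb4 by -0.03 ± 0.09, and neither was called. Met changed by -0.51 ± 0.13 (adjusted p = 0.0210 in limma). That call was lost with spike-in scaling (-0.12), with replicate or slide as a fixed block, with no signal filter, and when any 1 control array was left out, where its change lay between -0.53 and -0.48.

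Among partners of Bgn, Tlr2 rose by 1.47 ± 0.10 (adjusted p = 1.14e-04 in limma), while Tlr4 fell, changing by -1.24 ± 0.11 (adjusted p = 4.15e-04), also with spike-in scaling (-0.86). Of the TGF-beta ligands, Tgfb3 rose by 1.46 ± 0.11 and Tgfb1 was 2.83-fold higher, and both were called. Tgfb2 rose by 0.58 ± 0.17 (adjusted p = 0.0290 in limma), and was not called with no signal filter or without either of pre-miR-16 replicates 1 and 2 (0.49 and 0.55) or control replicates 2 and 3 (0.50 and 0.52). The matricellular genes Ccn2, which encodes a protein bound by Dcn, and Ccn4 rose by 3.42 ± 0.13 and 3.96 ± 0.13, while Pdgfrb, a receptor of mesenchymal cells, was 18.4-fold higher. Igf1, a ligand of a receptor that Dcn also binds, was at least 6.90-fold higher by the processed signal, or 2.79 in log2. Under normexp its log2 change was 1.21, and it passed the filter only through the pre-miR-16 arrays. On the same arrays 7 of 8 fibroblast markers rose, Pdgfrb itself among them. The part of fibroblasts in these changes was not tested.

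Proteases reported to cleave SLRPs were higher almost throughout. Of 16 tested out of 19, 15 rose and 0 fell (93.8% called, against 49.1%), and the median change was 3.92. It was 3.67 when genes below background in one group were set to their bound, and 2.33 under normexp. Adamts5, Tll1, Mmp3, Mmp7, Mmp8, Mmp12 and Mmp13 passed the filter only through the pre-miR-16 arrays, where they were high. With only probes above background on all 6 arrays, 8 of 9 proteases rose and 0 fell, against 7218 of 15054 genes called. Mmp2 (gelatinase A) read 2.28 ± 0.36 in pre-miR-16 and -2.88 ± 0.14 in pre-miR-Control cultures (SD, n = 3 each), a rise of 5.16 ± 0.19 (adjusted p = 1.42e-05 in limma). Mmp9 (gelatinase B) rose by 4.42 ± 0.30 and the aggrecanase gene Adamts4 by 3.16 ± 0.17. The aggrecanase gene Adamts5 was at least 20.1-fold higher, the tolloid-like protease gene Tll1 at least 2.03-fold and Mmp7 (matrilysin) at least 3.49-fold. In log2 these bounds were 4.33, 1.02 and 1.80, above the normexp changes of 2.34, 0.42 and 0.65. They hold for the processed signal only. Mmp14, a membrane-bound collagenase that activates Mmp2, was the exception at -0.69 ± 0.26 (adjusted p = 0.0666 in limma), and without pre-miR-16 replicate 2 it was called as lower (-0.97, adjusted p = 0.00229). Macrophage markers, of which 9 of 12 rose, moved with these genes, and their part was not tested.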

How the data were processed

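Per the file headers, the spot intensity in the deposited scanner files came from Agilent Feature Extraction 9.5.3.1, which subtracted background and detrended each array and did not normalize between arrays. The deposited raw mean and local background intensity served for normexp. The series matrix holds log2 values deposited by the authors, with column medians of 6.79 to 6.81 and a scaling that the sources used here do not state. There, pre-miR-16 replicates 1 and 2 each track the other's scanner file, which stays within the group. Control spots and 74 to 113 outlier spots per array (of 43379 gene spots) were left out, spots of a probe were averaged as log2, and the 75th percentile was subtracted. Probes entered the test when a share of 0.5 or more of their spots passed background on all 3 arrays of a group, which 23828 probes did. A further 4 probes lacked a value on some array and were dropped. Genes were named by RefSeq accession or current symbol, and the brightest kept probe stood for each gene. In R 4.3.3, limma 3.58.1 (lmFit, eBayes) compared the groups over 16703 genes with Benjamini-Hochberg adjustment, and the data.table package (version 1.17.8) read the files. Member probes came from the same fit over all probes. P-values measure the spread between these samples, which may be technical in part.

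The code was tested on simulated data. The members, lists and naming rule were chosen with earlier results of these data known. Named were all members, from each list at most 5 called genes of smallest p and at most 2 of largest p, main partners, and the 4 genes nearest Dcn, Bgn and Lum. Replicate numbers were not used to pair the samples in the main fit. Alternatives were other scalings, background corrections, filters, probe choices, weights, blocks, thresholds and leaving out each array.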

Additional observations from a re-analysis of the deposited data

How the results depend on the processing

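Over the 23 alternatives, Bgn and Ogn were called in each, and the direction of Bgn, Lum, Ogn and Omd held in each that measured them. Dcn and Fmod, never called, ran from -0.23 to 0.31 and from -0.11 to 0.53. Lum was lowest at 0.86 (normexp). The members called, 4, became 2 among probes above background on all 6 arrays and at an adjusted p of 0.01, and 5 without the filter, where Aspn and Prelp were added and Omd was lost. They were 3, without Omd, with quantile normalization (also after normexp), median centring, spike-in scaling, the series matrix values, the trended robust fit, slide as a fixed block and the 2-fold minimum. Of all genes 8202 were called (32.4% rises), but 4713 with spike-in scaling (77.9% rises), 4881 at an adjusted p of 0.01, and 2864 at a 2-fold minimum. Among probes above background on all 6 arrays, 10 of 24 chain synthesis genes (4 rose, 6 fell) were called. In that set 8 of 9 proteases and 0 of 2 other SLRP genes were called. The 2-fold minimum left 11 chain synthesis genes, 5 other proteoglycans and 14 receptors and ligands. Array weights gave 2 other SLRP genes. With 1 array left out, 5715 to 9149 genes, 3 to 4 members, 16 to 22 chain synthesis genes, 1 to 2 other SLRP genes, 6 to 8 other proteoglycans, 17 to 22 receptors and ligands, 15 to 16 proteases and 27 to 28 fibroblast matrix genes were called. The second other SLRP gene, called without pre-miR-16 replicate 2, was Tsku (0.57). With the replicate block 6534 genes, 4 members and 15 chain synthesis genes were called, and with slide as a fixed block 6037 genes, 3 members and 14 chain synthesis genes. Same-numbered arrays deviated from their group means with correlations of -0.09 to -0.00, against -0.05 to 0.09 for arrays of different number. These values cannot show whether same-numbered cultures shared a source. Of the 44 named list genes, Met and Tgfb2 lost their call and Mmp14, Eln, Bcan and Tsku gained one under some alternatives, and the cause of each change was not tested. Dim probes limit Aspn, Prelp, Lum and Omd most.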
